A study of Mus musculus with 3 samples.

Results

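Cx3cr1, Cxcr3, Cxcr4 and Ccr2 encode chemokine receptors of natural killer (NK) cells and were chosen by their symbols, as 4 of the 25906 genes listed in the files. Chemokine receptors are G protein-coupled receptors that turn gradients of secreted chemokines into directed migration and adhesion. CX3CR1 binds CX3CL1 (fractalkine), which endothelial cells display on their surface, and CXCR3 binds the interferon-induced CXCL9, CXCL10 and CXCL11. CXCR4 binds CXCL12, which retains lymphocytes in bone marrow and tissues, and CCR2 binds CCL2, CCL7 and CCL12, which call monocytes and other leukocytes to inflamed sites. In mouse NK cells, CD27 marks the less mature stage and CD11b, encoded by Itgam, the mature stage, and CX3CR1 is known as a receptor of the most mature cells.

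The study asked where NK cells of different maturity reside in the lung during metastasis. NK cells (NK1.1+ NKp46+, depleted of other lineages) of wild-type female mice aged 9 weeks were sorted from lung and blood and sequenced in 3 droplet libraries. The naive library came from mice without tumor cells, and the 6 h and 14-day libraries from mice that had received 100000 PyMT mammary tumor cells intravenously 6 h or 14 days earlier. Lung and blood cells shared a library and carried different hashtag antibodies (B0304 read as lung and B0306 as blood, in the order in which the study's methods name them), which gives 6 groups of 1 sample each, and the labels name no individual mice.

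The 6 groups held 3676 and 4367 cells (naive lung and blood), 4680 and 2746 cells (6 h) and 3575 and 2069 cells (14 days). Their summed counts lay between 16936897 and 35922737 unique molecular identifiers (UMIs), and the median per cell between 5909.5 and 7524 UMIs. Between 7 and 16 cell barcodes were shared by any pair of libraries. With 1 sample per group, no difference between time points and none within a library was tested, and intervals of levels and of their ratios cover counting error only. Lung and blood were tested over the 3 libraries with the library as block. Levels are given as CPM, the counts of a gene scaled to the same total of gene UMIs in each group, and describe RNA at the 3′ end, and they are compared between groups but not between genes. A time point and its library cannot be told apart. All 8 NK markers were above 10 CPM in each group, and Klrb1c, which encodes NK1.1, was found in 98.2% to 99.8% of cells. Summed B cell markers reached at most 1.59 CPM, platelet markers at most 0.223 CPM and lung epithelial markers at most 1.99 CPM. Endothelial markers summed to 49.6 to 84.9 CPM, with Pecam1 highest and with Cdh5 and Cldn5 at 0 in every group but 14-day lung. T cell markers summed to 479 to 581 CPM, largely from Trbc1. This T cell receptor constant gene was found in 70.5% to 78.5% of the sorted cells, and Trbc2 in 36.2% to 46.1%. Trac was found in 6.64% to 11.2% of cells, Cd3d in 2.67% to 5.46% and Cd3g in 2.34% to 4.06%. Cd3e was found in at most 0.923% of cells of a group, and Cd4, Cd8a and Cd8b1 each in at most 0.0687%.

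Cx3cr1 (ENSMUSG00000052336, chromosome 9 from 119901616 to 120069879 of GRCm38, minus strand) had 94.3 (95% CI 90.4 to 98.4) CPM in naive lung and 95.2 (95% CI 91.7 to 98.8) CPM in naive blood. At 6 h lung cells had 84.7 (95% CI 81.7 to 87.7) CPM and blood cells 85.2 (95% CI 81.3 to 89.1) CPM. At 14 days the tissues parted, with 68.1 (95% CI 65.1 to 71.2) CPM for lung and 134 (95% CI 129 to 140.1) CPM for blood. These were the lowest and the highest of the 6 levels, and the intervals of lung and blood overlapped in the naive and 6 h libraries only. At least 1 Cx3cr1 UMI was found in 20.8% of 14-day lung cells and 35.4% of 14-day blood cells, and in 24.7% to 27.1% of cells in the other groups. After each cell was thinned to 3000 UMIs, these shares were 12.9%, 22.6% and 15.6% to 18.8%. The 10% of cells with the most Cx3cr1 held 76.4% of its UMIs in 14-day lung and 60.3% in 14-day blood. The annotated span of Cx3cr1 contains Gorasp1, Csrnp1 and Xirp1 on the same strand, and how reads there were assigned is not given in the sources used here.

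Cxcr3 (ENSMUSG00000050232, chromosome X from 101731535 to 101734269, minus strand) had 13.0 (95% CI 11.5 to 14.5) CPM in naive lung and 21.8 (95% CI 20.1 to 23.5) CPM in naive blood. Its level was 17.4 (95% CI 16.1 to 18.8) CPM in 6 h lung and 25.4 (95% CI 23.4 to 27.6) CPM in 6 h blood. In the 14-day library it was 18.0 (95% CI 16.4 to 19.6) CPM for lung and 21.4 (95% CI 19.3 to 23.8) CPM for blood. The 3 blood groups were above the 3 lung groups. Neighbours in this order had overlapping intervals, except that naive lung stood apart below the rest. A Cxcr3 UMI was found in 6.56% to 13.9% of cells, and in 3.37% to 5.75% of thinned cells.

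Cxcr4 (ENSMUSG00000045382, chromosome 1 from 128588199 to 128592293, minus strand) was the receptor that separated the tissues. Its level was 172 (95% CI 166 to 177) CPM in naive lung and 14.5 (95% CI 13.2 to 15.9) CPM in naive blood. The 6 h library had 168 (95% CI 164 to 172) CPM for lung and 14.6 (95% CI 13.1 to 16.3) CPM for blood, and the 14-day library 177 (95% CI 172 to 182) CPM for lung and 24.0 (95% CI 21.7 to 26.4) CPM for blood. The 3 lung levels lay within overlapping intervals of their neighbours, and every lung level was above every blood level. Of the blood groups, 14-day blood stood above the other two. Between 48.5% and 52.4% of lung cells and between 8.38% and 14.4% of blood cells held a Cxcr4 UMI, or 31.5% to 32.6% and 3.82% to 7.17% after thinning. Cells with a UMI held 2.26 to 2.66 UMIs on average in lung and 1.19 to 1.36 in blood. RNA free in the droplets was bounded from markers of other cells in near-empty barcodes and could make up at most 3.63% of the Cxcr4 level in a lung group, but up to 23.3% in naive blood, 41.6% in 6 h blood and 5.05% in 14-day blood. With that much free RNA subtracted, the log2 ratio of lung over blood of Cxcr4 was 3.92, 4.24 and 2.95 at naive, 6 h and 14 days.

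The promoter of Cxcr4 is printed because Cxcr4 differed most between tissues and because its window holds no annotated exon. It is the 250 bases before the RefSeq start, chr1:128592300-128592549 of GRCm38.p6, on the minus strand. Capitals mark letters of 3 motifs, searched on both strands.
Cxcr4 promoter: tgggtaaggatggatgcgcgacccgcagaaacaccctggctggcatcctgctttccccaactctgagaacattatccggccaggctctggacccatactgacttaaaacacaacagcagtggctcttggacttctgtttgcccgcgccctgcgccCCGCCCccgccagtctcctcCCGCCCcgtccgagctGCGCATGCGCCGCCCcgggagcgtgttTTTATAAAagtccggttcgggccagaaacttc
The 10-base NRF1 site begins at position -59 from the start and is found in 0.782% of 32851 mouse promoter windows of RefSeq. The TATA box TATAAA begins at -30, with its reverse strand match at -32, and 12.4% of windows hold one. The GC box CCGCCC begins at -95, -75 and -50, the last of which overlaps the NRF1 site by its end, and 32.7% of windows hold one. The counts come from the 3′ ends of RNA and do not bear on which start was used.

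Ccr2 (ENSMUSG00000049103, chromosome 9 from 124101950 to 124113557, plus strand) had 228 (95% CI 222 to 234) CPM in naive lung and 272 (95% CI 266 to 278) CPM in naive blood. The 6 h library had 234 (95% CI 229 to 239) CPM for lung and 246 (95% CI 239.9 to 253) CPM for blood. In the 14-day library the level was 186 (95% CI 181 to 191) CPM for lung and 175 (95% CI 168 to 181) CPM for blood. Both 14-day groups were below the 4 others. A Ccr2 UMI was found in 42.4% to 56.3% of cells, and in 27.0% to 40.1% after thinning. For Cx3cr1, Cxcr3 and Ccr2, free RNA could make up at most 2.91%, 5.88% and 3.63% of the level in any group.

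**Figure D1:**
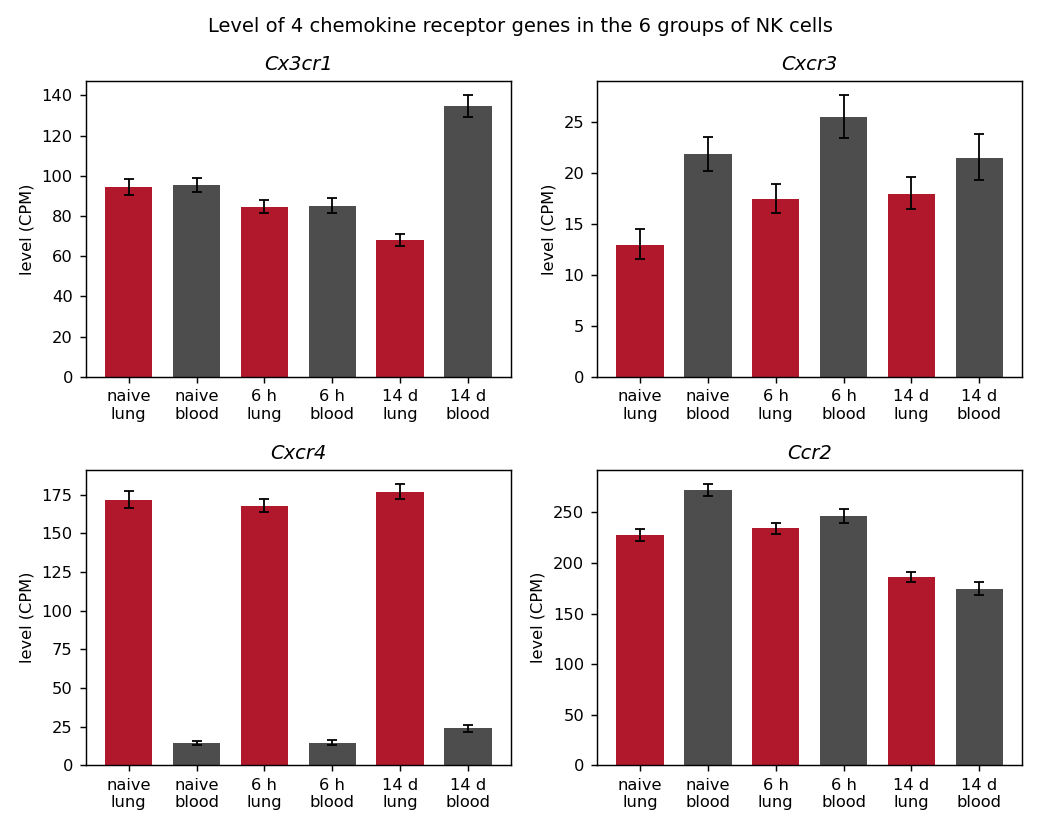
Bars give the level of each receptor gene in CPM in lung (red) and blood (grey) NK cells of the naive, 6 h and 14-day libraries, 1 sample per bar, and error bars give exact Poisson 95% intervals. Cxcr4 stands at 168 to 177 CPM in the lung groups and 14.5 to 24.0 CPM in the blood groups, and Cx3cr1 differs between tissues at 14 days.

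Lung was compared with blood within each library, so that library preparation was common to both. Tissue handling before it was not. Lungs were minced and digested with enzymes, while for blood the study's methods name only red cell lysis. Tissue and digestion therefore cannot be told apart in these ratios or in the test over the libraries. A gene was tested at 10 CPM or more in the higher group and counted as different at a fold of 1.5 or more. In the naive library 6.5% of genes were higher and 3.95% lower in lung, and of the 4 receptors Cxcr4 was higher and Cxcr3 lower. The log2 ratio of lung over blood was 3.56 (95% CI 3.42 to 3.71) for Cxcr4, an 11.8-fold difference, and -0.75 (95% CI -0.95 to -0.55) for Cxcr3. Ccr2 had -0.26 (95% CI -0.31 to -0.21) and Cx3cr1 -0.013 (95% CI -0.094 to 0.067), against a median of -0.093 over 8212 genes. Only 16 genes had a larger ratio in either direction than Cxcr4.

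In the 6 h library 6.11% of genes were higher and 3.4% lower in lung, and Cxcr4 alone of the 4 passed the fold, with a log2 ratio of 3.52 (95% CI 3.36 to 3.69), or 11.5-fold. Cxcr3 had -0.54 (95% CI -0.71 to -0.38), Ccr2 -0.074 (95% CI -0.12 to -0.024) and Cx3cr1 -0.0085 (95% CI -0.092 to 0.075), with a median over all genes of -0.097. In the 14-day library 5.75% of genes were higher and 3.96% lower in lung. Cxcr4 was higher by a log2 ratio of 2.88 (95% CI 2.74 to 3.03), or 7.39-fold, and Cx3cr1 lower by -0.98 (95% CI -1.07 to -0.89), 1.98 times as high in blood as in lung. Cxcr3 had -0.26 (95% CI -0.45 to -0.057) and Ccr2 0.090 (95% CI 0.025 to 0.16), with a median over all genes of -0.11. Over the 3 libraries, 13.9% of 8016 genes were higher and 9.48% lower in lung at an adjusted p of 0.05 (edgeR's quasi-likelihood test with the library as block). These were 1118 and 760 genes, against 873 and 1993 with total counts in place of TMM scaling. Cxcr4 was higher by a log2 ratio of 3.41 (SE 0.14, edgeR adjusted p = 0.00075), in 3 of 3 libraries. Cxcr3 was lower in 3 of 3 libraries but missed the threshold, with -0.43 (SE 0.12, edgeR adjusted p = 0.064). With total counts its edgeR adjusted p was 0.025. Without the 14-day library its log2 ratio was -0.53, in a fit of 2 libraries whose spread was pooled over genes. For Cx3cr1 the log2 ratio was -0.24 (95% CI -0.75 to 0.27, edgeR adjusted p = 0.42), and without the 14-day library it was 0.090. For Ccr2 it was 0.0090 (95% CI -0.22 to 0.24, edgeR adjusted p = 0.95). The test takes the libraries as replicates of the tissue difference, although they also differ in time after tumor cells, and the labels do not say which mice they came from. Of the levels behind the Cxcr4 ratios, those in lung lay close together, and that in blood was higher at 14 days. In the 11.2% to 16.7% of cells that held no T, B or myeloid marker, Trbc1 and Trbc2 included, the naive ratio of Cxcr3 was 0.24 in place of -0.75. With median-of-ratios size factors in place of total counts, the 6 h ratio of Ccr2 was 0.028.

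Most genes that respond to tissue dissociation, such as the immediate early genes Fos and Dusp1, were higher in lung as well. Of those tested, 8 of 10 were higher in the naive, 7 of 9 in the 6 h and 10 of 12 in the 14-day library. Beside this, 5.75% to 6.5% of all genes were higher. Some of the stress genes reached 10 CPM through lung alone, so they could not be called lower. These were Fosb, Atf3 and Dusp1 in the naive and Fos and Fosb in the 6 h library. At 14 days they were Fos, Fosb, Atf3, Dusp1, Hspa1a and Hspa1b. The immediate early gene Egr1 was lower in lung in the naive and 6 h libraries, with log2 ratios of -1.02 and -0.68. The summed level of the 12 genes of this list was 1956 to 2170.3 CPM in the lung groups and 521 to 587 CPM in the blood groups. Dusp1 had 196 CPM in naive lung and 8.91 CPM in naive blood. Junb, Ier2 and Dnajb1 were found in at least 26.8% of cells of every group. The rest of the list is called less frequent here, although Dusp1 reached 62.1% of cells of a group. Within lung, cells that held a UMI of the less frequent of these genes had 178, 172 and 185 CPM of Cxcr4 at naive, 6 h and 14 days, against 122, 122 and 111 CPM in cells without one. Cells without one could still hold Junb, Ier2 or Dnajb1. When only cells without one were compared, which left 11.2% to 13.0% of lung and 63.4% to 66.8% of blood cells, the log2 ratio of Cxcr4 in lung over blood was 3.17, 3.12 and 2.20. That of Cx3cr1 at 14 days was -0.29 in place of -0.98, and that of Ccr2 at 14 days was -0.20 in place of 0.090. The part of these genes in the differences was not tested beyond this. Of 8 early maturation genes, 4 were higher in lung in the naive (Emb, Cd28, Kit and Il7r), 1 in the 6 h (Emb) and 4 in the 14-day library (Emb, Cd28, Tcf7 and Kit). Of 8 late genes, 1, 1 and 4 were lower. Over all genes 6.5%, 6.11% and 5.75% were higher and 3.95%, 3.4% and 3.96% lower, so 1 gene of 8 is not read as a difference. In naive lung the early genes Thy1 (-0.45), Tcf7 (-0.28) and Cd27 (-0.20) were lower within the fold, and the other early genes higher. The late genes Gzmb (0.31), Prdm1 (0.23) and Prf1 (0.18) were higher within the fold there, and the other late genes lower.

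Blood and lung of the 14-day library were each compared with the naive library. In lung, 4.64% of genes were higher and 10.9% lower at 14 days, and none of the 4 receptors passed the fold. Cx3cr1 had a log2 ratio of -0.47 (95% CI -0.56 to -0.38), Ccr2 -0.29 (95% CI -0.35 to -0.24), Cxcr3 0.47 (95% CI 0.26 to 0.68) and Cxcr4 0.044 (95% CI -0.016 to 0.10), beside a median over all genes of -0.19. In either direction, 24.6% of genes had a larger ratio than Cx3cr1, 48.3% than Ccr2, 24.5% than Cxcr3 and 91.5% than Cxcr4. With median-of-ratios size factors Cxcr3 had 0.62, which is past the fold. Lung cells of the 14-day library also differed in late maturation genes, with 5 of 8 lower (Itgam, Klrg1, Zeb2, S1pr5 and Prf1) and none higher past the fold. Of 8 early genes, 1 was higher (Tcf7) and 1 lower (Cd28). The median log2 ratio was -0.75 for the late and 0.091 for the early list. The 7 markers of type 1 innate lymphoid cells (ILC1), which also lie in this gate, summed to 176 CPM against 56.0 CPM in naive lung. Itga1 had 70.8 CPM against 14.5 CPM and Tnfsf10 35.2 CPM against 5.79 CPM. Cxcr6 had 4.72 CPM against 3.45 CPM and Cd200r1 7.56 CPM against 5.16 CPM, and Il7r, Tmem176a and Tmem176b were higher too. T cell markers summed to 571 CPM against 492 CPM, and 5 erythroid markers to 90 CPM against 1.62 CPM. Of the T cell markers, Trbc1 had 336 CPM against 305 CPM, and Cd3d, Cd3g and Trac were higher past the fold. How far these sums reflect numbers of other cells, and the part of such cells in the receptor ratios, was not tested. Without cells holding one of the less frequent stress genes the log2 ratio of Cx3cr1 in lung was -0.072, and that of Cxcr4 was -0.15.

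In blood, 0.949% of genes were higher and 3.01% lower at 14 days than in naive mice, and both directions held a receptor. Cxcr4 was higher by a log2 ratio of 0.72 (95% CI 0.53 to 0.92), or 1.65-fold, and Ccr2 lower by -0.64 (95% CI -0.70 to -0.58), with a naive level 1.56 times the level at 14 days. Cx3cr1 had 0.50 (95% CI 0.42 to 0.58), a 1.41-fold difference, and Cxcr3 -0.023 (95% CI -0.21 to 0.16), beside a median of -0.15. With median-of-ratios size factors Ccr2 had -0.52, which is under the fold, and Cx3cr1 0.62, which is past it. Only 1.31% of genes had a larger ratio than Cxcr4 in either direction, 2.45% a larger one than Ccr2 and 9.08% a larger one than Cx3cr1. Summed myeloid markers were 95.1 CPM in 14-day blood, with Lyz2 highest, and 27.8 CPM in naive blood, with S100a9 highest, and C1qb was at 0 in both. The ILC1 markers summed to 116 CPM and 51.7 CPM, and the T cell markers to 581 CPM and 479 CPM. Without the cells that held a T, B or myeloid marker found in under 2% of cells, all 28 receptor ratios between groups moved by less than their intervals.

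At 6 h, compared with the same naive groups, ratios were small. In lung 0.487% of genes were higher and 0.0874% lower, in blood 0.283% and 0.234%, and no receptor passed the fold in either tissue. Cxcr3 had the largest of the receptor ratios, with 0.43 (95% CI 0.23 to 0.63) in lung, where 2.40% of genes had a larger one, and 0.22 (95% CI 0.057 to 0.39) in blood. The blood ratio was -0.015 when each cell was thinned to 3000 UMIs, and the lung ratio was -0.018 in cells without any T, B or myeloid marker. Cx3cr1 had -0.16 in both tissues (95% CI -0.24 to -0.077 and -0.25 to -0.076). Ccr2 had 0.040 (95% CI -0.0098 to 0.090) for lung and -0.14 (95% CI -0.19 to -0.095) for blood. The interval of Cxcr4 included 0 in lung (-0.091 to 0.025) and in blood (-0.20 to 0.22).

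**Figure D2:**
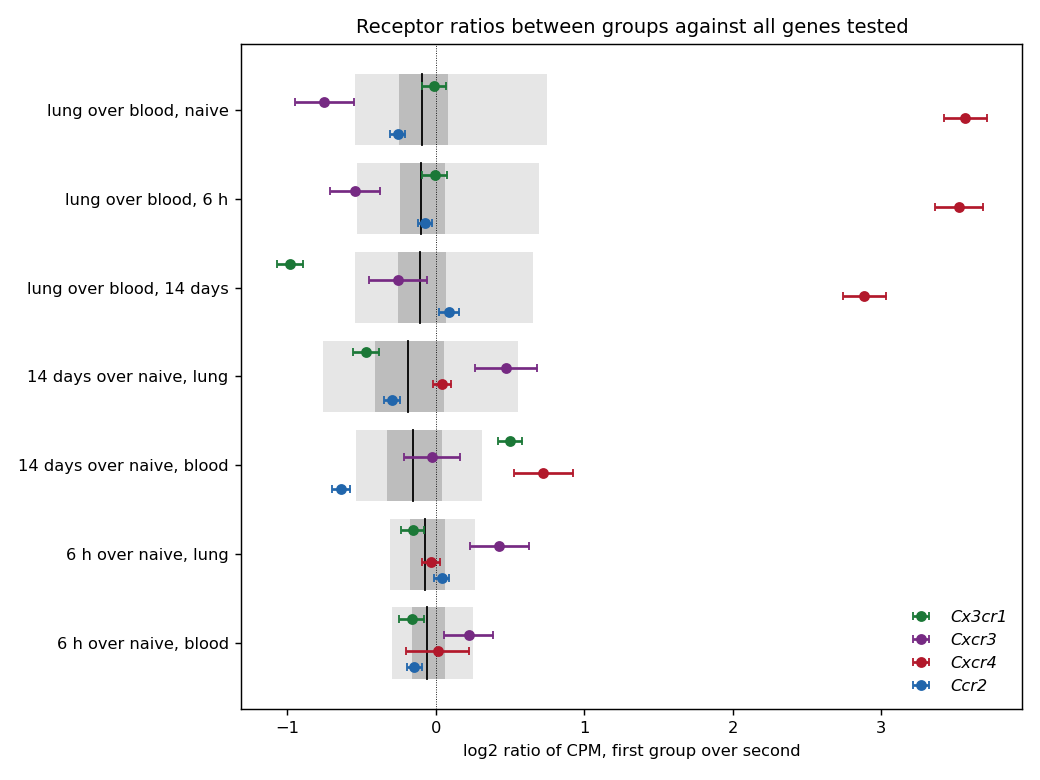
Points give the log2 ratio of each receptor for 7 comparisons with exact 95% intervals, dark and light grey bands the middle 50% and 90% of all genes tested, and black lines their median. Cxcr4 lies at 2.88 to 3.56 in lung over blood, outside the band of all genes, and Cx3cr1 lies at -0.47 in lung and 0.50 in blood at 14 days over naive.

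NK cells were then split by whether a UMI of Cd27 or of Itgam was found. Cells with Itgam only made up 61.6% of naive lung and 47.0% of 14-day lung cells, and cells with Cd27 only 6.53% and 13.5%. In naive lung, Cx3cr1 had 8.59 CPM in Cd27 only cells, 46.3 CPM with both, 124 CPM in Itgam only cells and 66.5 CPM with neither. Cd27 only cells were below Itgam only cells in 6 of 6 groups, with a median log2 ratio of -3.13 (range -3.86 to -2.46). Cxcr3 and Ccr2 had the opposite order in 6 of 6 groups. Cxcr3 had 38.9 CPM in Cd27 only and 7.47 CPM in Itgam only cells of naive lung, and a median log2 ratio of 2.46 (range 1.53 to 4.15). Ccr2 had 442 CPM and 168 CPM there, and a median of 1.23 (range 1.10 to 1.40). The highest Cxcr3 level was in Cd27 only cells of 14-day blood, at 104 (95% CI 88.5 to 122) CPM, and in the same class of 14-day lung it was 31.2 (95% CI 26.5 to 36.6) CPM. Cxcr4 had a median of 0.62 (range -0.43 to 1.31). It was higher in Cd27 only cells in the naive and 6 h groups, at 0.61 to 1.31, while both 14-day intervals included 0. With each cell thinned to 3000 UMIs, the median of Cx3cr1 was -2.22. Classes rest on detection, and Cd27 only cells of naive lung had a median of 6658 UMIs, Itgam only cells 5900 UMIs.

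The tissue difference of Cxcr4 was found in every class. The log2 ratio of lung over blood was 3.27 to 3.96 in the 4 classes of the naive library, 3.22 to 3.77 in those of the 6 h library and 2.5 to 3.31 in those at 14 days. Cx3cr1 was lower in 14-day lung than in 14-day blood in each class as well, by -1.41 in cells with neither gene, -1.13 in Cd27 only, -0.75 in cells with both and -0.64 in Itgam only cells. In Cd27 only cells it was lower in naive lung too, at -1.45 (95% CI -2.38 to -0.62, 15 UMIs in lung). At 6 h this class had 0.48 (95% CI -0.21 to 1.22). The other classes had -0.11 to 0.065 in the naive and -0.12 to 0.40 in the 6 h library. From naive to 14 days, Cx3cr1 in lung had a log2 ratio of -0.13 (95% CI -0.24 to -0.033) in Itgam only cells, -0.070 (95% CI -0.38 to 0.24) with both, -0.66 (95% CI -0.91 to -0.41) with neither and 0.47 (95% CI -0.36 to 1.40) in Cd27 only cells. In blood it was 0.45 (95% CI 0.36 to 0.54), 0.74 (95% CI 0.49 to 0.99), 0.65 (95% CI 0.39 to 0.90) and 0.15 (95% CI -0.47 to 0.76) in the same order. In Itgam only cells the lung ratio was thus -0.13 beside -0.47 over all cells, and the blood ratio 0.45 beside 0.50. Cxcr3 differed in direction between classes. In blood at 14 days over naive it had 1.06 (95% CI 0.71 to 1.41) in Cd27 only and -1.0 (95% CI -1.45 to -0.57) in Itgam only cells. In 14-day lung over blood it had -1.74 (95% CI -2.07 to -1.41) in Cd27 only and 0.88 (95% CI 0.42 to 1.36) in Itgam only cells, beside -0.26 over all cells. Ccr2 was lower at 14 days in each class of blood, by -0.43 to -0.76, and in lung by -0.42 to -0.69 in the 3 classes with a UMI of either gene, against -0.12 (95% CI -0.25 to 0.011) in cells with neither.

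**Figure D3:**
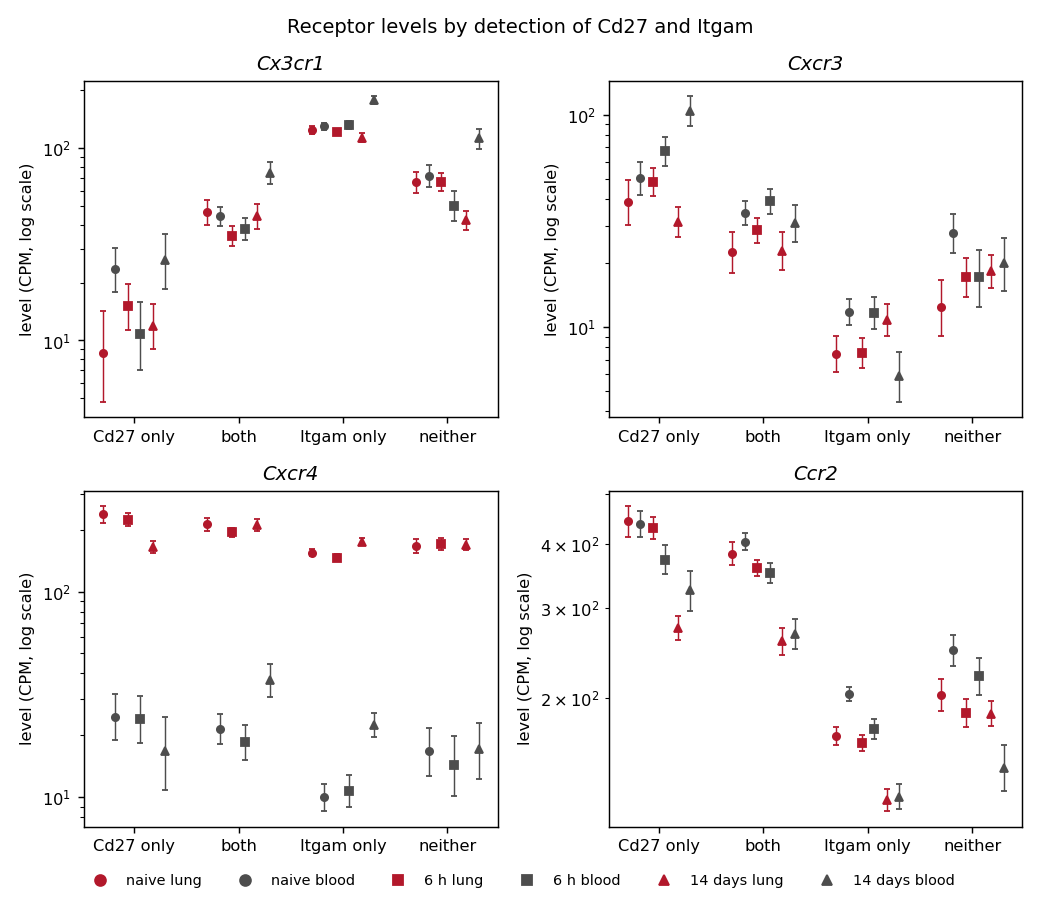
Points give receptor levels in CPM on a log scale in cells with a UMI of Cd27 only, of both genes, of Itgam only or of neither, for lung (red) and blood (grey) of the naive (circles), 6 h (squares) and 14-day (triangles) libraries, with Poisson 95% intervals. Cx3cr1 is higher in Itgam only than in Cd27 only cells of every group, Cxcr3 and Ccr2 are lower, and Cxcr4 is split by tissue in all 4 classes.

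Cells thinned to 3000 UMIs showed which receptors were found together. Cx3cr1 and Cxcr3 seldom met in a cell. In naive lung 3 cells held both where 22.7 would be found if detection of each were independent, and the median log2 odds ratio over the 6 groups was -2.59 (range -3.68 to -2.16). For Cx3cr1 and Ccr2 it was -1.82 (range -1.99 to -1.42), with 107 naive lung cells against 233 under independence. Cx3cr1 and Cxcr4 had a median of -0.48 (range -0.66 to -0.35), and their intervals excluded 0 in the 3 lung groups and included it in the 3 blood groups. Cxcr3 and Ccr2 were found together more often than under independence in 6 of 6 groups, at 1.53 (range 1.16 to 1.79), with 77 naive lung cells against 41.9. Cxcr4 and Ccr2 had 0.31 (range 0.16 to 0.91), with intervals that included 0 in both 14-day groups. Cxcr3 and Cxcr4 had 0.35, negative in 14-day blood (-0.70, 95% CI -2.38 to 0.60). The interval of this pair included 0 in every group but 6 h lung (0.029 to 0.88).

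In naive lung, 32.3% of thinned cells held none of the 4 receptors, 19.5% Ccr2 alone, 16.1% Cxcr4 alone, 11.7% Cx3cr1 alone and 10.1% Cxcr4 with Ccr2. In naive blood, 42.3% held none, 31.5% Ccr2 alone and 13.9% Cx3cr1 alone, while 1.44% held Cxcr4 alone and 1.58% Cxcr4 with Ccr2. At 14 days the shares in lung were 37.9% for none, 17.2% for Ccr2 alone, 18.1% for Cxcr4 alone and 8.57% for Cx3cr1 alone, and in blood 47.3%, 19.6%, 3.73% and 18.1%. A pair of receptors was found in 15.5% to 18.2% of lung cells and 8.43% to 8.74% of blood cells. No cell held all 4, where the exact binomial upper bound was 0.0795% to 0.179% of cells of a group. At this depth a receptor that is missed in a cell may still be expressed there.

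**Figure D4:**
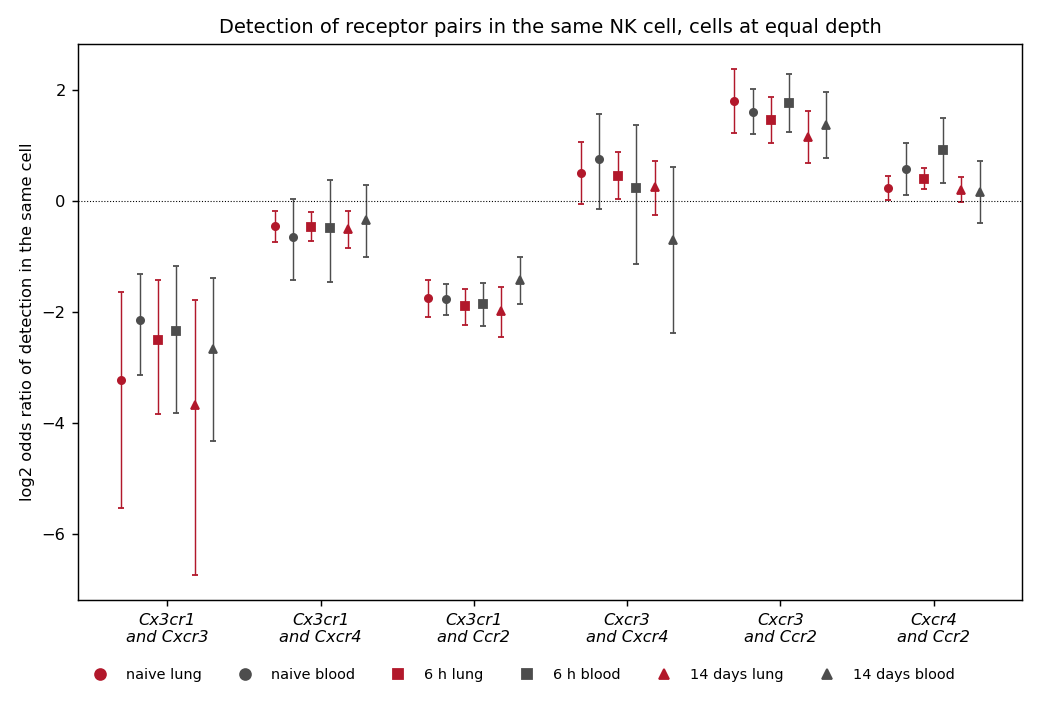
Points give the log2 odds ratio of finding both receptors of a pair in the same cell, with conditional 95% intervals, for the 6 groups at 3000 UMIs per cell, and 0 marks independent detection. Pairs with Cx3cr1 lie below 0, and Cxcr3 with Ccr2 lies at 1.16 to 1.79.

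Cells with a UMI of a receptor were compared with cells without one, and a gene was counted where its fold was at least 1.5 in the same direction in all 6 groups. For Cx3cr1, 0.199% of 7553 genes, or 15, were higher and 0.397%, or 30, lower. The largest median log2 ratios were 1.90 for the chemokine gene Ccl9, 1.53 for the glutathione peroxidase Gpx8, 1.37 for the mitochondrial topoisomerase Top1mt, 1.28 for Nhsl2 and 1.26 for the RNA-binding Cpeb3. The smallest were -3.36 for Ltb, which encodes lymphotoxin beta, -2.80 for the membrane glycoprotein Emb, -2.75 for Cxcr3, -2.52 for Crtam and -2.45 for Il7r, the interleukin 7 receptor. Of the 8 early maturation genes 7 reached the CPM minimum, of which 6 were lower and none higher, and of the late genes 1 of 8 was higher.

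For Cxcr3, 0.279% of 7525 genes, or 21, were higher and 0.133%, or 10, lower. Cd200r1 (2.68) and Il7r (2.48), both on the ILC1 list, were among the first 5, with the T cell receptor gamma constant gene Trgc4 (2.64), whose reads may be shared with its close copies, the phosphatase Inpp4b (2.58) and Ltb (2.29). The lowest were Cx3cr1 (-2.32), Gpx8 (-1.84), Cdc20b (-1.58), the chemokine Ccl3 (-1.39) and the adrenergic receptor Adrb1 (-1.32). Of the 7 ILC1 genes, 4 reached the CPM minimum, of which 2 were higher. Over all cells Cd200r1 had 5.07 to 7.56 CPM in every group but 14-day blood. It thus reached the minimum through the cells with Cxcr3 and could only be called higher. Those cells were 3.37% to 5.75% of thinned cells. For Ccr2, 0.186% of 7528 genes, or 14, were higher and 0.159%, or 12, lower. Emb (1.68), Cxcr3 (1.55), Kbtbd11 (1.45), Ltb (1.37) and Aff3 (1.22) led the higher genes. Ccl9 (-1.85), Cx3cr1 (-1.80), Gpx8 (-1.79), Adrb1 (-1.32) and the potassium channel Kcnj8 (-1.09) led the lower ones. Early maturation genes were higher with Cxcr3 in 5 of 8 cases and with Ccr2 in 5 of 8 cases. The study describes its less differentiated cluster in these same libraries by Cd27, Emb, Cd28 and Thy1 of this list, beside Ccr2 and Cxcr4. The early list is therefore not independent of these data for any of the receptors.

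The lists of Cx3cr1 and of the other receptors met in opposite directions. Of the 30 genes lower with Cx3cr1, 14 were higher with Cxcr3, which is 46.7% of the first list and 66.7% of the second, and 11 were higher with Ccr2, or 36.7% and 78.6%. None of the 15 genes higher with Cx3cr1 was higher with any of the other receptors. Genes higher with Cxcr3, Ccr2 and Cxcr4 were 0.279%, 0.186% and 0.0399% of those tested. With lists this short, sharing no gene is not read as a result. Cxcr3 and Ccr2 shared 8 higher genes, Cd27, Ctla2a, Emb, Ighm, Kbtbd11, Ltb, Tcf7 and Thy1. The same cells enter each list, so the lists are not independent. For Cxcr4, 0.0399% of 7527 genes, or 3, were higher and 0% lower: Slamf6 (1.36), Emb (1.02) and Gramd3 (0.91). Of the 12 stress genes, 6 reached the CPM minimum for the rule, and none of these met it with any of the 4 receptors. Only 0% to 0.397% of all genes met the rule in a direction, so this does not tell the stress genes apart from others.

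**Figure D5:**
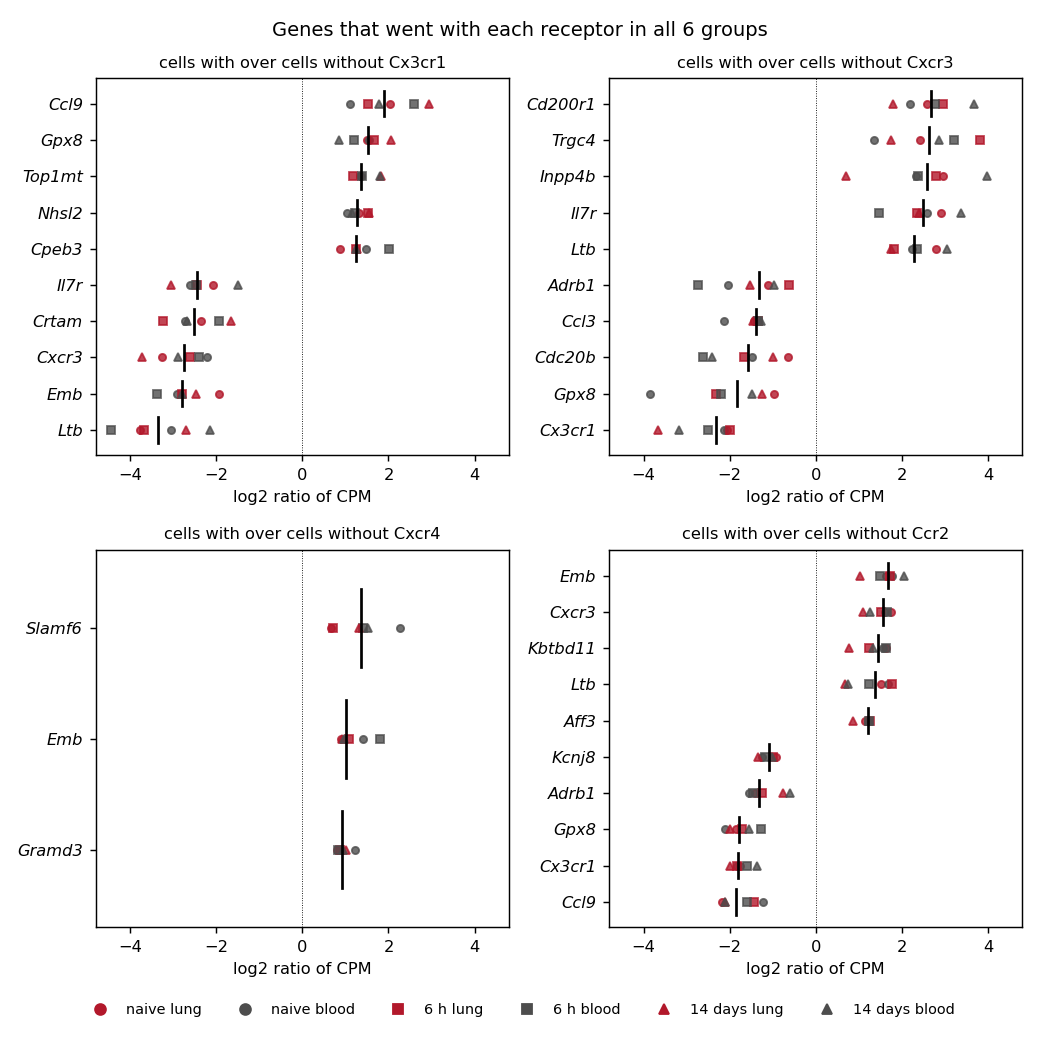
Points give the log2 ratio of CPM in cells with over cells without a UMI of the receptor named above each panel, 1 point per group, and black lines the median of 6 groups, for up to 5 genes in each direction. Ltb, Emb and Il7r lie to the left with Cx3cr1 and to the right with Cxcr3 or Ccr2, and only 3 genes met the rule with Cxcr4.

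Cells with an Emb UMI had less Cx3cr1 (log2 ratio -2.55 to -1.86 over the 6 groups) and more Ccr2 (1.15 to 1.72), Cxcr3 (1.47 to 1.97) and Cxcr4 (0.50 to 1.51) than cells without. Cells with a UMI of Klrg1, an inhibitory receptor of mature cells, had more Cx3cr1 (1.5 to 2.65) and less Cxcr3 (-2.09 to -0.94), Ccr2 (-0.98 to -0.74) and Cxcr4 (-1.09 to -0.085) than cells without. Emb was among the genes counted above with each receptor, and Klrg1 among those counted with Cx3cr1 and Ccr2. The splits turn the same associations around in the same groups, so those directions are not further results. In 14-day lung, 605 cells held both Itga1, the gene of the residency marker CD49a, and the TGF-beta target Pmepa1. They had 17.5 (95% CI 14.2 to 21.4) CPM of Cx3cr1 against 115 (95% CI 109 to 121) CPM in the 1841 cells with neither, and 29.7 against 10.5 CPM of Cxcr3, 201 against 149.9 CPM of Cxcr4 and 256 against 129 CPM of Ccr2.

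Among other chemokine receptor genes, Ccrl2 and Cmklr1 could be tested in every comparison. Cxcr6, the receptor of CXCL16, had 15.3 CPM in 14-day blood and 2.57 to 4.72 CPM in the other groups, so that it reached 10 CPM through that group alone. Ccrl2 and Cmklr1 did not pass the fold between lung and blood in the naive and 6 h libraries, and at 14 days Ccrl2 was higher in lung (log2 ratio 0.60) and Cmklr1 lower (-0.76). Cxcr1 and Ackr2 were at 0 in every group.

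Of 8 ligand genes only Cxcl10, a ligand of CXCR3, reached 10 CPM. It had 3.71 CPM in naive lung, 12.6 CPM in 6 h lung and 57.4 CPM in 14-day lung, against 0.40, 2.04 and 1.18 CPM in blood. The order of its lung levels followed the time points, with a log2 ratio of 1.77 (95% CI 1.44 to 2.12) at 6 h and 3.95 (95% CI 3.64 to 4.28) at 14 days over naive. Summed myeloid markers were 16.3, 30.8 and 30.0 CPM in the same lung groups, with S100a9 highest in naive and Lyz2 in the later ones. The myeloid markers C1qa and C1qb had 5.08 and 5.00 CPM in 14-day lung. Both were at 0 in naive lung, and they had 0 and 0.139 CPM in 6 h lung. The part of myeloid cells in the Cxcl10 levels was not tested. Cxcl9 had 2.77 CPM in 14-day lung and 0 in the 3 blood groups.

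Among 19 genes of signalling below the receptors, Rgs1 and Rgs2, which speed the shut-off of G proteins, were higher in lung in each library. Their relative Rgs16 had 17.5, 21.3 and 37.2 CPM in the lung groups against 4.30, 5.93 and 5.25 CPM in blood, and reached 10 CPM through lung alone. Arrb1, an arrestin, was higher in lung in the naive library (log2 ratio 0.85) and just under the fold at 6 h (0.57), and none of the 19 was lower in lung, beside 5.75% to 6.5% of all genes higher and 3.4% to 3.96% lower. Rgs1 had 317 CPM in naive lung and 38.0 CPM in naive blood, a log2 ratio of 3.06 (95% CI 2.97 to 3.15), and 3.09 and 3.01 in the later libraries. In lung at 14 days over naive Rgs16 was higher, at 1.09, and Arrb1, Rgs2, Dock2 and Elmo1 were lower, beside 4.64% and 10.9% of all genes. In blood at 14 days over naive, Dock2 and Elmo1 were lower, 2 of 19, beside 3.01% of all genes. The median of the list was -0.30 in lung and -0.24 in blood at 14 days over naive, beside -0.19 and -0.15 for all genes.

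Finally, genes were ranked by how closely their level followed each receptor over the 6 groups, among 7422 genes with at least 10 CPM in every group, as the distance of mean-centred log2 CPM. Nearest to Cxcr4 were Rgs1 (distance 0.53), the transcription factor gene Cebpb (0.65) and Litaf (0.87). Smarcd3, a subunit of chromatin remodelling complexes, was nearest to Cx3cr1 (0.19), with 34.8 CPM in 14-day blood and 17.8 CPM in 14-day lung, followed by Top1mt (0.32) and S100a6 (0.32). Prmt5 (0.17), Calhm6 (0.22) and Nup62 (0.24) were nearest to Cxcr3, and Cntln (0.087), Zbtb40 (0.12) and Mllt3 (0.12) to Ccr2. Each likeness rests on 6 points, which share 3 libraries.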

How the data were processed

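Sorted mouse NK cells were profiled by 3′ single-cell RNA sequencing in 3 libraries. The deposited files hold raw UMI counts per gene and hashtag for all barcodes, made by the authors with Cell Ranger (7.1.0 per the file headers, another version in the methods) on GRCm38.p6, before cell calling. Whether intronic reads were counted is not given in the sources used here. The submitters' processing notes also name Seurat 5.0. Barcodes with 800 to 5000 genes and at most 6% mitochondrial counts were kept. A cell was assigned to the hashtag with 90% or more of its tag counts, B0304 read as lung and B0306 as blood, following the order of the methods, which left out 4.08%, 2.08% and 2.44% of barcodes. Doublets within a tissue stayed in, and an alternative left out the 5% of cells with the highest Scrublet scores.

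Counts were summed per group. Lung and blood sums were tested over the 3 libraries with edgeR 4.0.16 (quasi-likelihood, TMM, library as block, Benjamini-Hochberg adjustment, genes at 10 CPM in 3 or more sums), a test added after seeing the data. Other values have exact Poisson, conditional and binomial 95% intervals. For detection, each cell was thinned to 3000 UMIs, and 86, 75, 40, 20, 38 and 6 shallower cells were left out in the 6 groups. The receptors and gene lists were chosen with earlier results of these data known. Named genes are the receptors, list members, up to 5 genes per direction that go with a receptor, the 3 genes nearest to it in pattern, and genes used to split cells. The lists cover other chemokine receptors, ligands, signalling, maturation, dissociation stress and cell type markers. Gene positions come from GENCODE M21. The intervals and the edgeR fit were tested on simulated data. Python 3.11.15, numpy 2.4.6, scipy 1.17.1 and scanpy 1.11.5 were used. Alternatives changed the scaling, depth, free RNA, hashtags, doublets, other cells, genes per cell and CPM minimum. Some members of these lists are not reported here.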

Additional observations from a re-analysis of the deposited data

Results flagged for a closer look

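Cx3cr1 had opposite directions in the tissues at 14 days over naive, with a log2 ratio of -0.47 (95% CI -0.56 to -0.38) for lung and 0.50 (95% CI 0.42 to 0.58) for blood. A larger ratio in either direction was found for 24.6% of genes in lung and 9.08% in blood. Each value rests on 1 library per time point, and the difference between the tissues was not tested. The lung value was -0.072 in cells without a UMI of the less frequent stress genes. The blood value stayed at or above 0.13 under the alternatives run.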

How the results depend on the processing

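Lung and blood were paired by library, with the library as block, in a fit added after seeing the data. In it, leaving out 1 library gave -0.40 to 0.090 for Cx3cr1, -0.53 to -0.30 for Cxcr3, 3.30 to 3.65 for Cxcr4 and -0.065 to 0.11 for Ccr2, and with 2 libraries left the spread was pooled over genes. Cx3cr1 and Ccr2 turned sign without the 14-day library, and Cxcr3 stayed lower. The p-values of that fit do not measure the spread between libraries as the main fit does and are not given. With total counts in place of TMM scaling the values were -0.33, -0.52 (now past the threshold), 3.32 and -0.082 (reversed). Cxcr4 stayed higher in each of these fits, and its call held with total counts. Counts of genes called with 2 libraries rest on p-values with the spread pooled over genes and are not read as results. They were 346 higher and 63 lower without the naive, 387 and 82 without the 6 h and 2572 and 2198 without the 14-day library. Time points could not be paired, since each is 1 library. All values below are log2 ratios unless they are named as counts or percent, and the cause of each move was not tested unless given. With Otsu thresholds for hashtags, without the highest Scrublet scores and with at least 1500 genes per cell, ratios and odds stayed within their spread and counts of genes within 1.5 times, though not always the same genes (of 12 lower with Ccr2, 11 were shared without the highest scores and 10 at 1500 genes). The 28 ratios between groups stayed within their intervals without cells that held a rarer T, B or myeloid marker, an alternative added after seeing the data.

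With median-of-ratios size factors, lung over blood was 0.077, 0.093 and -0.87 for Cx3cr1 (naive, 6 h, 14 days) and -0.17, 0.028 and 0.21 for Ccr2, of which the 6 h value reversed. At 14 days over naive, the lung values were -0.32 for Cx3cr1, 0.19 for Cxcr4 and -0.15 for Ccr2, and the blood values 0.62 for Cx3cr1 and -0.52 for Ccr2.

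Without cells that held any T, B or myeloid marker, few cells remained, since Trbc1 was found in 70.5% to 78.5% of cells. Lung over blood was -0.19 for Cx3cr1, 0.24 for Cxcr3 and 0.0037 for Ccr2 in the naive library (Cxcr3 and Ccr2 reversed), -0.19 for Cx3cr1 and -0.20 for Cxcr3 at 6 h, and -0.63 for Cx3cr1, 2.72 for Cxcr4 and 0.47 for Ccr2 at 14 days. At 14 days over naive, it gave -0.31 for Cx3cr1, 0.19 for Cxcr4 and -0.43 for Ccr2 in lung, and 0.13 for Cx3cr1, 0.81 for Cxcr3, 1.12 for Cxcr4 and -0.90 for Ccr2 in blood. At 6 h over naive, it gave -0.018 for Cxcr3 (reversed), -0.14 for Cxcr4 and -0.14 for Ccr2 in lung, and 0.42 for Cxcr3 and -0.053 for Ccr2 in blood. The median of Cx3cr1 in Cd27 only over Itgam only cells was -2.03. The median odds of co-detection were -0.87 for Cx3cr1 with Cxcr3, -0.20 for Cx3cr1 with Cxcr4, -1.45 for Cx3cr1 with Ccr2, -0.32 for Cxcr3 with Cxcr4 (reversed) and 1.90 for Cxcr3 with Ccr2. Counts of genes were 1 higher and 13 lower with Cx3cr1, 597 higher and 2 lower with Cxcr3, and 9 higher and 5 lower with Ccr2. Of the 21 genes higher with Cxcr3 before, 3 were shared.

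Another alternative, added after seeing the data, left out cells that held a stress gene of the list other than Junb, Ier2 and Dnajb1. Lung over blood was then 0.23 for Cx3cr1, 3.17 for Cxcr4 and -0.47 for Ccr2 in the naive library. At 6 h it was 0.25 for Cx3cr1, -0.76 for Cxcr3, 3.12 for Cxcr4 and -0.22 for Ccr2. In the 14-day library it was -0.29 for Cx3cr1, 2.20 for Cxcr4 and -0.20 for Ccr2 (reversed). At 14 days over naive, it gave -0.072 for Cx3cr1, 0.26 for Cxcr3, -0.15 for Cxcr4 and -0.44 for Ccr2 in lung, and -0.71 for Ccr2 in blood.

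With free RNA subtracted, Cxcr4 had 3.92 (naive) and 4.24 (6 h) in lung over blood, and 1.00 at 14 days and -0.37 at 6 h over naive in blood. With cells thinned to 3000 UMIs, lung over blood was -0.15 for Cx3cr1, -0.29 for Cxcr3 and -0.13 for Ccr2 at 6 h and -0.87 for Cx3cr1 at 14 days. At 14 days over naive it gave 0.11 for Cxcr4 in lung, and 0.38 for Cx3cr1 and 1.00 for Cxcr4 in blood, and at 6 h over naive -0.27 for Cx3cr1 and -0.034 for Ccr2 in lung and -0.015 for Cxcr3 (reversed) in blood. The median of Cx3cr1 in Cd27 only over Itgam only cells was -2.22. Thinned to 2000 UMIs, the odds were -1.55 for Cx3cr1 with Ccr2 and 1.14 for Cxcr3 with Ccr2, and 9 genes were higher with Cx3cr1, 1 with Cxcr4 and 9 with Ccr2. With Cxcr3, 23 genes were higher and 11 lower, but only 10 of the 21 higher and 6 of the 10 lower genes were shared.

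With at least 50 CPM, fewer genes were tested, and 7 were higher and 10 lower with Cx3cr1, 12 and 5 with Cxcr3, 8 and 7 with Ccr2 and 1 higher with Cxcr4. At 6 h over naive, 0.231% of genes in lung and 0.153% in blood passed the fold, against 0.574% and 0.518% at 10 CPM. Depth limits co-detection, since a receptor can be missed in a cell that expresses it.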

Other observations

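Barcodes with at most 100 UMIs, which belong to no group, held Cxcr4 at 112 CPM in the naive, 154 CPM in the 6 h and 166 CPM in the 14-day library, between the levels of blood and lung cells. Cx3cr1 had 83.5, 62.3 and 80.6 CPM there, Cxcr3 24.9, 25.9 and 24.6 CPM, and Ccr2 233, 215 and 177 CPM.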
